A study of Mus musculus with 6 samples.

Results

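Granule cells of the adult dentate gyrus (DG) are neurons that have left the cell cycle, and 47 genes of the cell cycle machinery were followed in them after loss of the transcription factor Bcl11b/Ctip2. The genes were taken as a list of names (cyclins, cyclin-dependent kinases, their inhibitors, pocket proteins, E2F factors, the MCM helicase with PCNA, CDC25 phosphatases, and genes of mitosis) and matched to the array annotation by gene symbol; a gene with several probe sets was read from the one with the highest mean over the 6 arrays. Of the 47 genes, 45 were measured, out of 19938 genes in all. Ccnb1 had no probe set paired with it alone, and the probe set of Cdkn1a is also paired with a second gene, so neither was given a value.

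The mutant mice carried Bcl11b flox/flox, CaMKIIα-tTA and tetO-Cre, a tet-off line with the transactivator under the CaMKIIα promoter, which is active in forebrain neurons, so that Cre is made only after doxycycline is withdrawn. The control mice came from the same line, and which of these alleles they carried is not stated. All mice received doxycycline in the drinking water before birth and until 2 months of age, and brains were taken 4 weeks after its removal. The granule cell layer was cut from cryosections stained with cresyl violet by laser capture microdissection, and RNA of 3 mutant and 3 control samples was hybridized to 1 Affymetrix whole-transcript array each. The values are log2 expression values, so a difference of 1 is a doubling of the signal. Nothing states that the samples came from separate animals, so p-values cover only the spread among these 6 samples, which may be technical.

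Progression through the cell cycle is driven by cyclins, which bind and activate cyclin-dependent kinases (CDKs). D-type cyclins with Cdk4 or Cdk6, followed by E-type cyclins with Cdk2, phosphorylate the retinoblastoma protein and its relatives, the pocket proteins, which otherwise hold E2F transcription factors inactive. Freed E2F factors switch on genes of DNA synthesis such as those of the MCM helicase, and inhibitors of the INK4 and CIP/KIP families hold the kinases back. In the DG, new granule cells arise from dividing progenitors throughout life, whereas mature granule cells do not divide, and several cell cycle proteins stay present in such neurons.

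The targeted gene Bcl11b had log2 levels of 9.03, 8.68 and 8.82 in mutants 1 to 3, against 10.56, 10.40 and 10.30 in controls 1 to 3. The groups were well apart, with a change of -1.58 (standard error 0.099, limma adjusted p = 2.56e-05), and whether the probes fall inside the deleted part of Bcl11b is unknown. Array medians were 6.29 to 6.36. On the second principal component, with 14.5% of the variance, the score of control 1 was 16.3, against scores of -11.8 to 1.8 for the remaining 5 arrays.

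Most cell cycle genes did not pass the test, and the increase of the cyclin Ccnd2 stood far above the others. Of the 45 genes, 8 were higher in the mutant, 1 was lower and 36 did not pass the test (limma, Benjamini-Hochberg adjustment over all 19938 genes, threshold 0.05). The 9 genes are 20.0% of those measured, against 15.2% of all genes tested. The 8 higher genes are 17.78%, against 9.23% of all genes, and the single lower gene is 2.22%, against 5.93% of all genes. The genes that rose were Ccnd2, Cdk6, Cdkn1b, Cdkn1c, Rb1, E2f6, Mcm3 and Cdc25a, and the gene that fell was Mcm6. The count of 9 was 12 without control 1 and 5 without mutant 3. The median log2 change over the 45 genes was -0.034, against -0.0027 over all genes. Mutant and control arrays did not overlap for 16 of the 45 genes (35.56%), against 31.6% of all genes, and with all mutant arrays above the controls for 11 and below for 5. Since the layer was measured in bulk, fewer cells of a type and less RNA per cell cannot be told apart. When each array was centred on its median, which shifts the median of all genes by -0.049, 6 of the genes were higher and 3 lower, and the split over all genes was 1423 higher and 1800 lower, against 1840 and 1183 without centring. After a second quantile normalization 8 of the cell cycle genes were higher and 3 lower, and 1628 and 1545 of all genes.

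**Figure D1:**
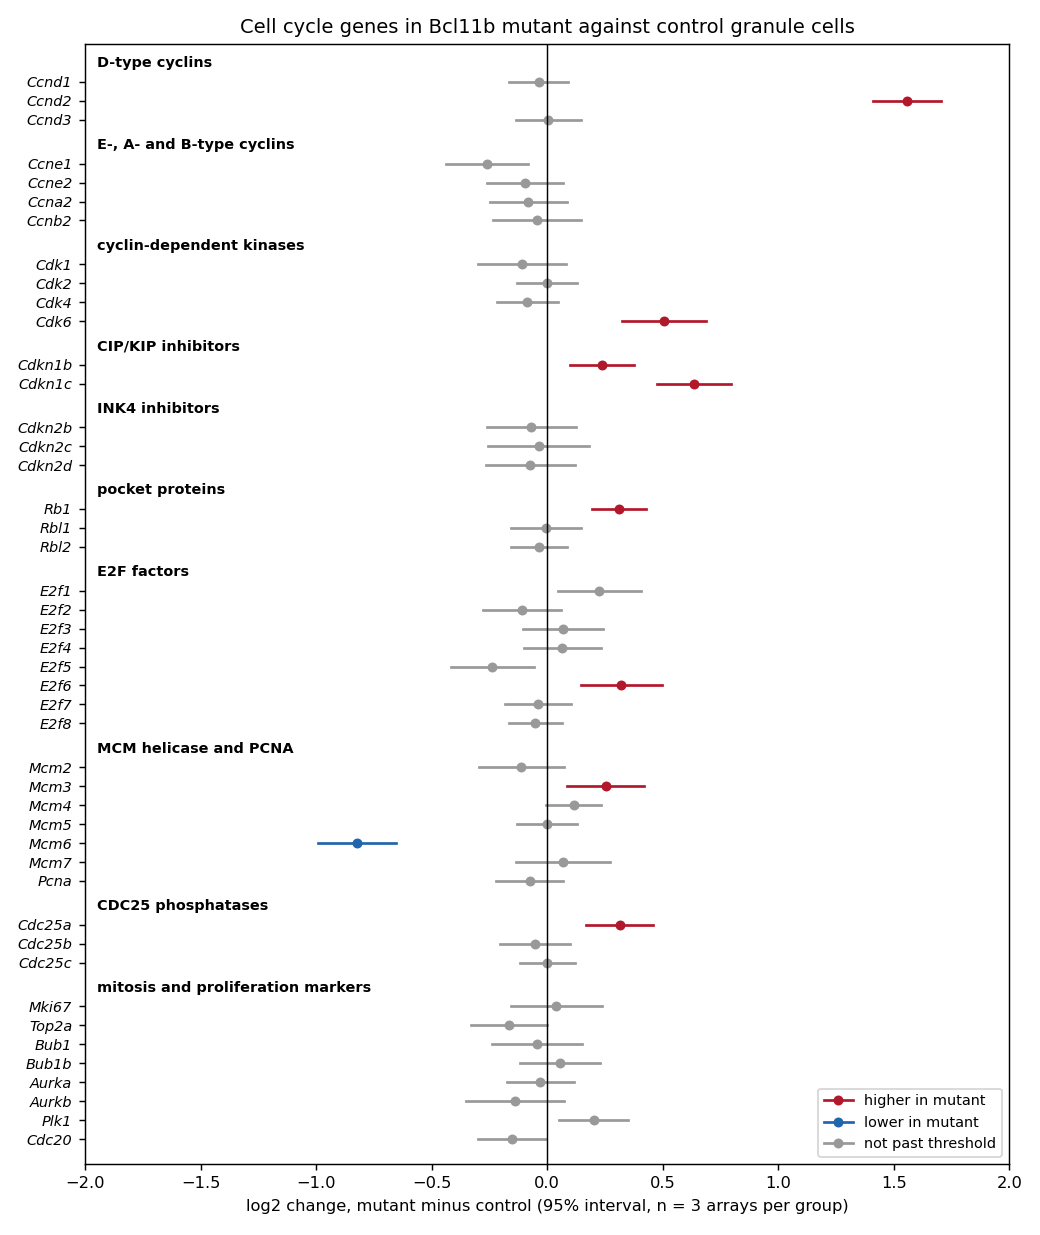
Log2 change of the 45 measured cell cycle genes, mutant minus control, on the horizontal axis, with 95% confidence intervals as lines and genes ordered by role. Red points were higher and blue points lower in the mutant past the threshold (limma, adjusted p under 0.05), grey points did not pass, and Ccnd2 at 1.56 and Mcm6 at -0.82 lie farthest from 0.

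Among the D-type cyclins, which link outside signals to entry into the cycle, only Ccnd2 rose. Its probe set (10548105) read 11.67, 11.70 and 11.66 in mutants 1 to 3, against 10.25, 10.06 and 10.06 in controls 1 to 3. The mutant arrays lay within a narrow band well above all controls, with means of 11.68 ± 0.022 in mutants and 10.12 ± 0.11 in controls (SD, n = 3 each). The log2 change was 1.56 (standard error 0.065, 95% interval 1.41 to 1.71, limma adjusted p = 3.13e-06), or a 2.94-fold higher signal. Without any 1 of the arrays the change stayed between 1.52 and 1.62. Ccnd1 lay between 6.98 and 7.09 in mutants and between 7.01 and 7.10 in controls, a change of -0.04 with an interval of -0.17 to 0.09. Ccnd3 had 7.29, 7.31 and 7.38 in mutants and 7.32, 7.24 and 7.41 in controls. Arrays of both groups were interleaved for these other D-type cyclins, and neither passed the test.

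Of the kinases that D-type cyclins bind, Cdk6 rose and Cdk4 did not pass the test. Cdk6 had log2 levels of 7.47, 7.20 and 7.28 in mutants, against 6.91, 6.78 and 6.74 in controls. All mutant arrays were above all controls, with a change of 0.50 (standard error 0.080, 95% interval 0.32 to 0.68, limma adjusted p = 0.0032). Its closest relative Cdk4 had 11.11, 11.09 and 11.15 in mutants and 11.29, 11.14 and 11.19 in controls, and its change of -0.09 did not pass (95% interval -0.22 to 0.05). Cdk2, the partner of E- and A-type cyclins, and Cdk1, which drives entry into mitosis, had changes of 0.00 and -0.11 and did not pass.

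**Figure D2:**
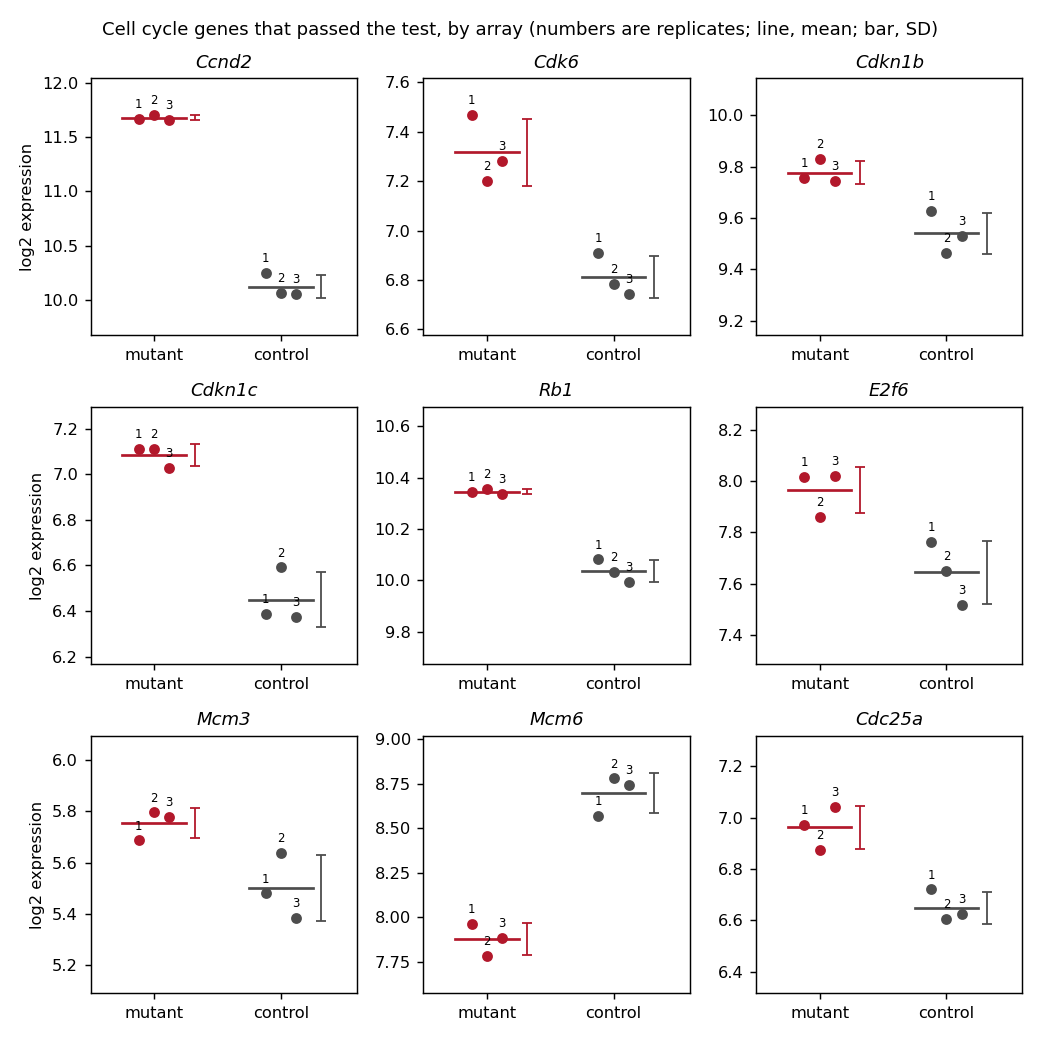
Log2 level of the 9 cell cycle genes that passed the test, 1 panel a gene, with mutant arrays on the left and control arrays on the right of each panel (n = 3 each). Points are arrays, numbered by replicate, lines are group means, bars beside them are SDs, and the vertical axes have different ranges. In every panel the points of both groups are apart, and Mcm6 is the panel with the mutant arrays lower.

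Both measured inhibitors of the CIP/KIP family, which bind cyclin and kinase complexes, rose. Cdkn1c had 7.11, 7.11 and 7.03 in mutants, against 6.39, 6.59 and 6.37 in controls. No arrays overlapped, and the change was 0.64 (standard error 0.070, 95% interval 0.48 to 0.80, limma adjusted p = 5.03e-04). Cdkn1b, an inhibitor associated with exit from the cycle, had 9.76, 9.83 and 9.74 in mutants, against 9.63, 9.46 and 9.53 in controls. The groups were separate but close, with a change of 0.24 (standard error 0.061, limma adjusted p = 0.0304). The call of Cdkn1b was lost without mutant 1, mutant 2, mutant 3, control 2 or control 3, with changes of 0.20 to 0.25, and after centring the arrays (0.19). A second probe set of Cdkn1b (10542317) had a change of 0.08 and did not pass (limma adjusted p = 0.768 over all probe sets). None of the INK4 inhibitors, which bind Cdk4 and Cdk6, passed: the changes were -0.07 for Cdkn2b, -0.04 for Cdkn2c and -0.07 for Cdkn2d.

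Of the pocket proteins, Rb1, the retinoblastoma protein itself, rose. It had 10.34, 10.35 and 10.34 in mutants, against 10.08, 10.03 and 9.99 in controls. The mutant arrays were almost equal to each other and all above the controls, with a change of 0.31 (standard error 0.051, 95% interval 0.19 to 0.43, limma adjusted p = 0.00411). Its relatives Rbl1 and Rbl2 had changes of -0.01 (95% interval -0.16 to 0.15) and -0.03 (-0.16 to 0.09) and did not pass.

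Among the 8 E2F factors, only E2f6 rose, a member that lacks the domain for pocket protein binding and acts as a repressor. E2f6 had 8.01, 7.86 and 8.02 in mutants, against 7.76, 7.65 and 7.52 in controls. The lowest mutant array was still above the highest control, with a change of 0.32 (standard error 0.077, limma adjusted p = 0.0230), but the call was lost without mutant 1, mutant 3, control 2 or control 3, with changes of 0.26 to 0.32. The activator E2f1 had 6.75, 6.98 and 6.83 in mutants and 6.75, 6.60 and 6.54 in controls, a change of 0.22 that did not pass (limma adjusted p = 0.0993). E2f5, a repressor, had 7.31, 7.29 and 7.09 in mutants and 7.35, 7.52 and 7.52 in controls, a change of -0.24 that did not pass (limma adjusted p = 0.0807). Both passed without control 1, with changes of 0.29 for E2f1 and -0.30 for E2f5, and E2f5 also after centring the arrays (-0.29). The changes of E2f2, E2f3, E2f4, E2f7 and E2f8 lay between -0.11 and 0.07, and none of these passed, nor did a second probe set of E2f3 (0.05).

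Of the 6 subunits of the MCM helicase, a ring that opens DNA at replication origins, Mcm6 fell, Mcm3 rose and 4 did not pass the test. Mcm6 had 7.96, 7.78 and 7.88 in mutants, against 8.57, 8.78 and 8.75 in controls. All mutant arrays lay well below all controls, with a change of -0.82 (standard error 0.074, 95% interval -0.99 to -0.65, limma adjusted p = 1.60e-04), and the change stayed between -0.89 and -0.78 without any 1 array. Mcm3 had 5.69, 5.80 and 5.78 in mutants, against 5.48, 5.64 and 5.39 in controls, a change of 0.25 at the edge of the threshold (standard error 0.073, limma adjusted p = 0.0498). Mcm3 lay under the median of every array in both groups. All 3 control arrays and 1 of the 3 mutant arrays were at or under 5.70, the 95th percentile of the olfactory receptor genes on the array, which stand here for signal without known expression, so Mcm3 was not shown to be above background in controls and the size of its change is not exact. Its call was lost without mutant 1, mutant 2, mutant 3, control 1 or control 3, with changes of 0.19 to 0.29, and after centring (0.20). Mcm2, Mcm4, Mcm5 and Mcm7 had changes of -0.11, 0.12, 0.00 and 0.07 and did not pass, and the interval of each lay between -0.30 and 0.27. Pcna, the sliding clamp of DNA polymerases, had 11.06, 10.97 and 11.16 in mutants and 11.08, 11.19 and 11.14 in controls, a change of -0.08 that did not pass. Pcna has a second probe set, whose values differed from these by at most 0.0019 in any array, so that the readings of the probe sets are not independent.

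Promoters of MCM and other replication genes are known to carry E2F sites, and the RefSeq windows of 300 bases (250 before and 50 after the start, GRCm38.p6) were searched for TTTCCCGC, TTTGGCGC, TTTCGCGC and TTTGCCGC on both strands. A window was held for 36 of the 47 genes, among them 6 of the 9 that passed the test (Cdk6, Cdkn1b, E2f6, Mcm3, Mcm6 and Cdc25a). Of the 42 windows of these genes, 11 held a match (26.19%), against 744 of 32851 windows of all genes (2.26%). The 11 genes were Cdc25a, Cdk1, Cdk2, E2f2, E2f3, E2f7, Mcm3, Mcm5, Mcm6, Mcm7 and Rbl1. The promoters of Mcm6, Cdc25a and Mcm7 are shown because these genes went different ways, Mcm6 lower, Cdc25a higher and Mcm7 not past the threshold, while each holds at least 1 match in the 250 bases before the start. Capitals mark the E2F letters on either strand, and each sequence is the RefSeq reference read 5′ to 3′ along the gene's strand and ends at the base before the start.
Mcm6 promoter, chr1:128359706-128359955, minus strand: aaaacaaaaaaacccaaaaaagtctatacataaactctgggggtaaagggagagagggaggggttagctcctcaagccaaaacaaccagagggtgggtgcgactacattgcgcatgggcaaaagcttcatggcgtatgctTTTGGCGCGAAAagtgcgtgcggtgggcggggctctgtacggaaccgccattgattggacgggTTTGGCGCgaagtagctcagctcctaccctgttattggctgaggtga
Cdc25a promoter, chr9:109875329-109875578, plus strand: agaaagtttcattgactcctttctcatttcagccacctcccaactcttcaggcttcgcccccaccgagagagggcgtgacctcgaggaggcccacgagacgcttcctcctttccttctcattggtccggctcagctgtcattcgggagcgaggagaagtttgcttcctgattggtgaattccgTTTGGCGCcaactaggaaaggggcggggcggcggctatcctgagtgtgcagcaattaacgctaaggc
Mcm7 promoter, chr5:138171884-138172133, minus strand: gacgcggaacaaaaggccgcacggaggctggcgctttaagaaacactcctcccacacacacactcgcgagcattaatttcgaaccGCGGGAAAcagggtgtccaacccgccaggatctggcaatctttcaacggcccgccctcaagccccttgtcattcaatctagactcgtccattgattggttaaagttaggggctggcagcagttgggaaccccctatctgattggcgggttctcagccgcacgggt
In Mcm6 the matches lie at bases -110 to -103, at -106 to -99 on the other strand, where the letters overlap the preceding match, and at -47 to -40. Cdc25a has TTTGGCGC at -67 to -60, the same letters as in Mcm6. Mcm7 has TTTCCCGC on the other strand at -165 to -158 in the window shown, which is 1 of 2 for this gene. The same window holds TTTCGCGC at 17 to 24, after the start and past the bases shown. Mcm3 had matches only after the start, at 20 to 27 and 39 to 46. Of the 11 genes with a match, Cdc25a and Mcm3 were higher, Mcm6 was lower and 8 did not pass the test. The CHR element of late cell cycle promoters (TTTGAA or TTCGAA on either strand) was found in 17 of the 42 windows (40.48%), against 19.23% of all windows. A match of letters does not show that a factor binds there.

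The phosphatase Cdc25a, which removes inhibitory phosphates from CDKs at the start of DNA synthesis, had 6.97, 6.87 and 7.04 in mutants, against 6.72, 6.60 and 6.62 in controls. The groups did not overlap, with a change of 0.31 (standard error 0.063, 95% interval 0.17 to 0.46, limma adjusted p = 0.0110). The call was lost without mutant 3 (0.27) or control 2 (0.29). Cdc25b and Cdc25c, which act on the way into mitosis, had changes of -0.05 and 0.00 and did not pass.

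None of the E-, A- and B-type cyclins and none of the 8 genes of mitosis and proliferation passed the test. Ccne1, which acts at the start of DNA synthesis, came nearest, with 8.60, 8.38 and 8.55 in mutants and 8.85, 8.81 and 8.65 in controls, a change of -0.26 (limma adjusted p = 0.0543). All its mutant arrays were below all controls, and it passed without control 3 (-0.32), after centring (-0.31) and after a second quantile normalization (-0.32). Ccne2, Ccna2 and Ccnb2 had changes of -0.10, -0.08 and -0.05. Mki67, which encodes the proliferation antigen Ki-67, had 5.60, 5.37 and 5.28 in mutants and 5.45, 5.39 and 5.29 in controls, a change of 0.04 with an interval of -0.16 to 0.23. Top2a, the topoisomerase that untangles chromosomes, had a change of -0.17 (limma adjusted p = 0.177), and its second probe set had one of 0.02. The checkpoint kinases Bub1 and Bub1b had changes of -0.05 and 0.06, and the mitotic kinases Aurka and Aurkb had -0.03 and -0.14. Plk1, another mitotic kinase, had a change of 0.20 (limma adjusted p = 0.0774) and Cdc20, an activator of the anaphase-promoting complex, one of -0.15 (limma adjusted p = 0.164). Aurkb and Plk1 passed without control 1, with changes of -0.24 and 0.25. Over the 36 genes that did not pass, the 95% intervals reached 0.12 to 0.22 to each side of the change and none extended beyond 0.44 in size, and 6 had an unadjusted p under 0.05.

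**Figure D3:**
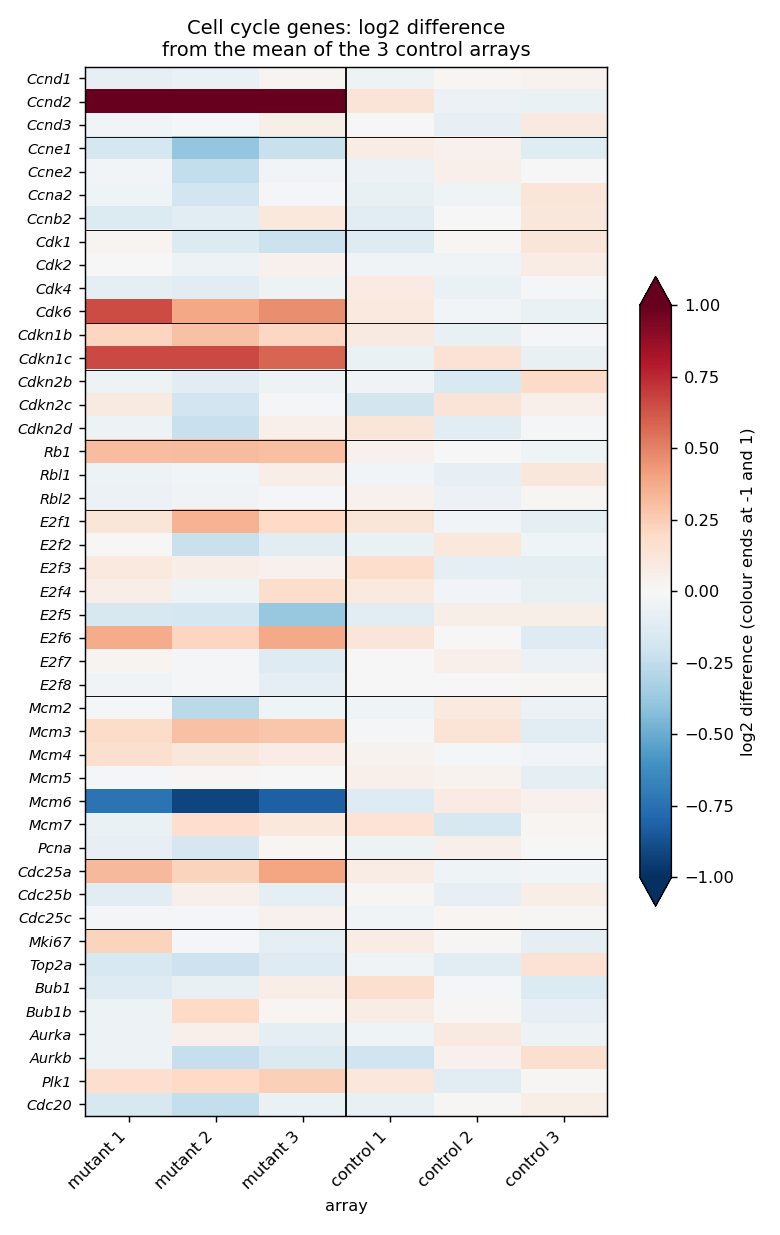
Log2 level of each of the 45 cell cycle genes in each array minus that gene's mean over the 3 control arrays (red above, blue below, colours end at -1 and 1), with mutants 1 to 3 in the left columns, controls 1 to 3 in the right columns and genes ordered by role. Ccnd2 and Mcm6 stand out in opposite directions, and most other rows differ little between the groups.

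Several genes of DNA replication and mitosis were at signal levels of genes that neurons of the DG are not known to use. As a description of signal without known expression, the 1027 olfactory receptor genes on the array had a median log2 level of 4.62 and a 95th percentile of 5.70. At or under that percentile in both groups were Cdk1, Cdk2, Rbl1, E2f8, Cdc25c, Mki67, Top2a, Bub1 and Bub1b, and 0 of these 9 genes passed limma's test, with an unadjusted p under 0.05 for Top2a alone. The mean of Ccna2 was under it in mutants alone, and those of Mcm3 and Plk1 in controls alone. The array table holds no detection call, so these genes were not shown to be above background, and a change in few cells could be missed. The share of equally dim genes that passed was not computed. With the dimmer genes left out, 2749 of 9969 passed, against 3023 of all 19938. That filter was a separate fit with its own adjustment, and it cut at the median level of all genes rather than at 5.70. It therefore does not give the share among genes as dim as these, and 0 of 9 is not read as a trait of these genes. Ccnd2, Cdk4, Pcna and Rb1 read 9.99 or above on the log2 scale in all 6 arrays, well above that percentile.

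**Figure D4:**
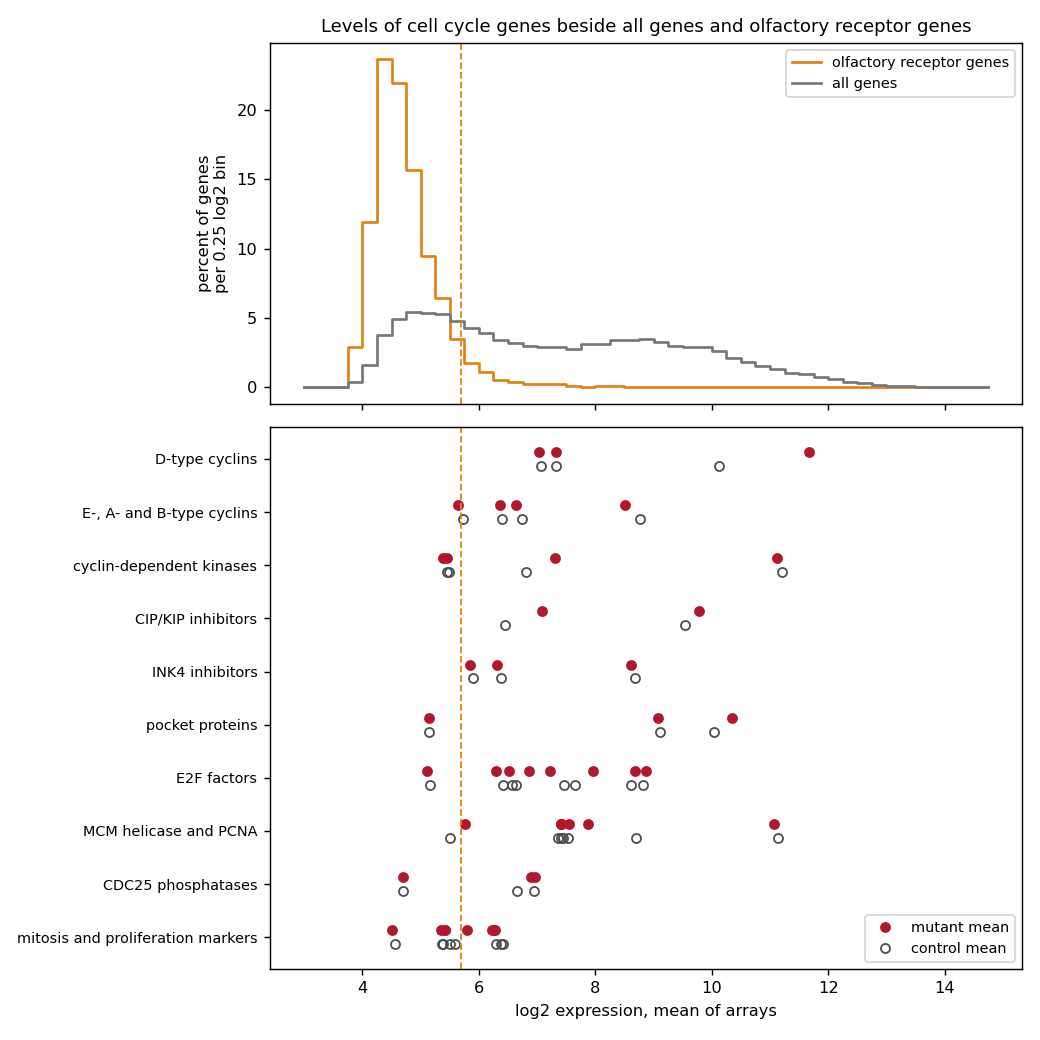
The lower panel gives the mean log2 level (horizontal axis) of each of the 45 cell cycle genes by role, filled for mutant and open for control arrays (n = 3 each), and the upper panel the distribution of all 19938 genes and of the 1027 olfactory receptor genes in percent of genes. A dashed line marks the olfactory receptor 95th percentile (5.70), and 9 genes lay at or under it in both groups.

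Among 190 other measured cell cycle genes in 7 lists, 11 were higher and 10 lower (5.79% and 5.26%), against 9.23% and 5.93% of all genes. Centring the arrays gave 7 higher and 16 lower, and a second quantile normalization 7 and 14. Of 18 other cyclins, 2 were higher and 3 lower: the named changes were -0.49 for Ccng2, a cyclin of arrested cells, 0.47 for Ccnjl, -0.28 for Ccnh, part of the CDK-activating kinase, and -0.38 for Ccnf. Of 27 other CDKs and their regulators, only the phosphatase Cdkn3 passed, at -0.27 (limma adjusted p = 0.0499). Cdkn3 lay under 5.70, the olfactory receptor 95th percentile, in every array (means 5.12 in mutants and 5.39 in controls). It was thus not shown to be above background, and the size of its change is not exact. Of 11 genes of the MuvB complex, E2F dimerization partners and relatives, Mybl1, a MYB factor, rose by 0.73 (7.50, 7.35 and 7.23 in mutants, against 6.74, 6.56 and 6.58 in controls, limma adjusted p = 5.51e-04), and the E2F partner Tfdp2 had a change of -0.29.

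Of 47 genes of DNA replication, 3 were higher and 2 lower. Tyms, thymidylate synthase, rose by 0.59 (7.37, 7.15 and 7.16 in mutants, against 6.56, 6.60 and 6.74 in controls, limma adjusted p = 0.00115). The DNA ligase Lig1 had a change of 0.39, the origin licensing factor Cdt1 of 0.31 and the single-strand binding subunit Rpa1 of -0.37. Of 45 genes of the spindle, kinetochore and cytokinesis, the kinesin Kif18a fell by 0.48 (limma adjusted p = 0.0339) and 44 did not pass. Of 22 genes of ubiquitin ligases, 2 were higher and 1 lower, with Fbxw7, which marks E-type cyclins for breakdown, at -0.52, Anapc2 at 0.23 and Cul1 at 0.19. Of 20 genes of checkpoints and growth arrest, 3 were higher and 1 lower. Hus1, of the DNA damage clamp, rose by 0.61 (8.63, 8.62 and 8.70 in mutants, against 8.06, 7.99 and 8.07 in controls, limma adjusted p = 1.37e-04). Btg1, an antiproliferative gene, fell by 0.63 (10.82, 10.86 and 10.82 in mutants, against 11.38, 11.46 and 11.56 in controls, limma adjusted p = 2.34e-04). Atr, a kinase that senses stalled replication, had a change of 0.31 and the phosphatase Ppm1d of 0.22. Several of these calls ended when 1 array was left out, none with a change of direction. Without mutant 1 this was so for Ccnf (-0.31), Cdkn3 (-0.25), Tfdp2 (-0.29), Cdt1 (0.29), Kif18a (-0.51), Cul1 (0.18) and Atr (0.30). Without mutant 2 it was so for Ccnh (-0.23), Cdkn3 (-0.25), Tfdp2 (-0.29), Cdt1 (0.28), Kif18a (-0.48), Anapc2 (0.22), Cul1 (0.22) and Ppm1d (0.19), and without mutant 3 for Ccnf (-0.39), Cdkn3 (-0.33), Kif18a (-0.45), Anapc2 (0.19), Cul1 (0.18), Atr (0.28) and Ppm1d (0.21). Without control 2 it was so for Ccnf (-0.36), Ccnh (-0.27), Cdkn3 (-0.31), Tfdp2 (-0.26), Rpa1 (-0.31), Kif18a (-0.51), Anapc2 (0.23), Cul1 (0.19), Atr (0.29) and Ppm1d (0.23), and without control 3 for Cdkn3 (-0.20), Cdt1 (0.26), Cul1 (0.20), Atr (0.26) and Ppm1d (0.24). The calls of Ccng2, Ccnjl, Mybl1, Tyms, Lig1, Fbxw7, Hus1 and Btg1 held in all 6 of these fits.

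**Figure D5:**
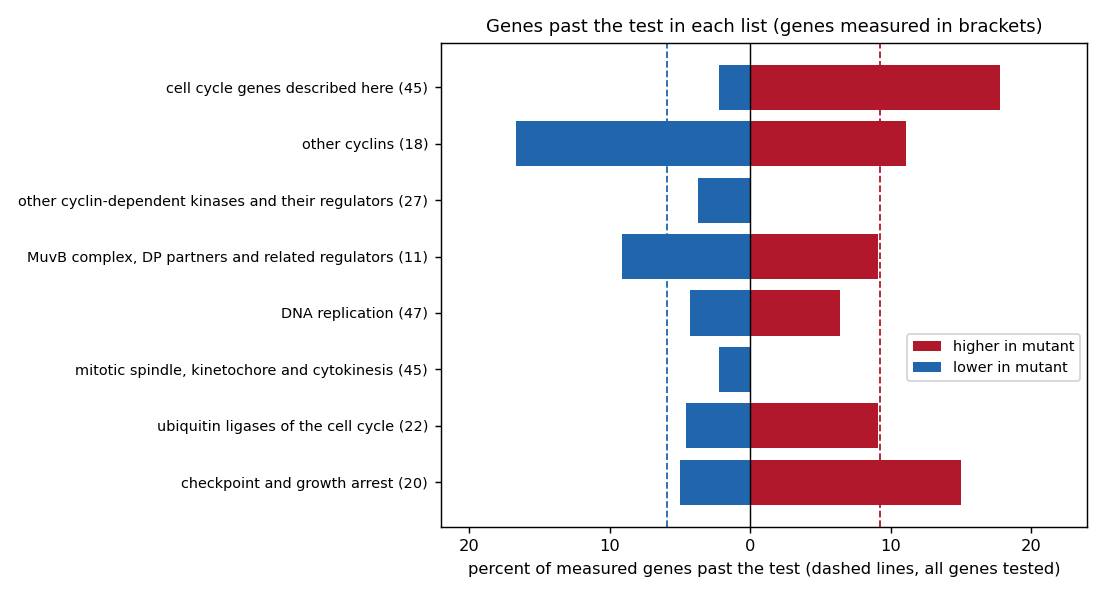
Number of genes higher and lower in the mutant as a percentage of the measured genes of each cell cycle list (horizontal axis, percent), higher in red to the right and lower in blue to the left, with dashed lines for all 19938 genes at 9.23% higher and 5.93% lower. The spindle list has 0 genes higher and 1 lower of 45.

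The layer can hold cells other than mature granule cells, and markers of these were read beside the cell cycle genes. Of 9 measured markers of neural stem cells and progenitors, 0 passed limma's test, and their summed linear signal was 1331 to 1463 in mutants and 1263 to 1583 in controls. Nes, which encodes nestin, averaged 5.49 in mutants and 5.39 in controls on the log2 scale, under the olfactory receptor 95th percentile of 5.70. Eomes, of intermediate progenitors, averaged 5.77 in mutants and 5.82 in controls, little above it. The sum rests mostly on Sox2, Hopx and Hes5, with means of 8.49, 8.14 and 8.05 in mutants and 8.53, 8.14 and 8.11 in controls. Whether the number of progenitors changed was not tested. Of 10 markers of immature neurons, 3 were higher and 0 lower. Calb2 (-0.33), Sox4 (-0.11), Igfbpl1 (0.06), Draxin (0.04) and Tubb3 (0.04) were among the 7 that did not pass. Dcx, which encodes doublecortin, had 9.48, 9.40 and 9.43 in mutants, against 8.74, 8.17 and 8.18 in controls (change 1.07, limma adjusted p = 0.00110), Sox11 a change of 0.46 and Neurod1 of 0.34. The summed signal of the immature neuron list was 12100 to 12920 in mutants and 10680 to 12520 in controls. Neurod2 and Prox1, which did not pass (changes of 0.08 and -0.05) and of which Prox1 is also on the list of mature granule cells, made up 70.5% to 72.3% of this sum in mutants and 75.0% to 77.1% in controls. Neurod2 and Prox1 were left out after their values were seen, and no other list was treated so. The sum was then 3351 to 3670 in mutants and 2567 to 3021 in controls, with no overlap. Its brightest genes are Neurod1, Sox11 and Dcx, which had already passed, so this sum restates their calls and adds no separate result.

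Of 12 genes that mark mature granule cells, 2 were higher and 7 lower, among them C1ql2 at -3.29, Trpc6 at -1.64, Calb1 at -0.97, Rfx3 at -0.61 and Tdo2, which rose, at 1.13. The summed signal was 24520 to 25870 in mutants and 34400 to 35420 in controls. Prox1 (-0.05), Plk5 (0.17) and C1ql3 (-0.18) did not pass. From chromatin immunoprecipitation in wild-type hippocampus, the paper proposes direct binding of Bcl11b at the C1ql2 promoter. It also reports lower C1ql2 mRNA in mutants by quantitative RT-PCR. Citing earlier work, it names desmoplakin (Dsp, -0.81 here) as a direct target. Whether the lower sum goes with fewer mature granule cells was not tested. Of 10 astrocyte markers, Slc1a2 (0.32) and Gfap (0.54) were higher and 0 lower, and the sum was 8426 to 9357 in mutants and 6688 to 7715 in controls. Slc1a2 weighs most in this sum, with log2 means of 12.26 in mutants and 11.94 in controls. The next brightest, Slc1a3, had 10.61 and 10.34. The 8 markers other than Slc1a2 and Gfap did not pass, with changes from -0.09 (S100b) to 0.26 (Slc1a3), so the sum does not show a rise of astrocyte markers in general. Of 11 oligodendrocyte markers, Ermn (-1.71) and Ugt8a (-0.34) were lower, with sums of 2747 to 3132 in mutants and 3349 to 3533 in controls. Ermn, with 6.06, 6.49 and 6.38 in mutants and 8.63, 8.15 and 7.29 in controls, makes up part of the gap between these sums. The 9 markers other than Ermn and Ugt8a did not pass, with changes from -0.27 (Mog) to 0.09 (Mobp), and Mbp had -0.08. Of 9 markers of oligodendrocyte precursors, which also divide in the adult, 0 passed, with sums of 963.1 to 1146 in mutants and 995.9 to 1137 in controls. Of 11 microglia markers Tmem119 was lower (-0.32; sums 1476 to 1657 in mutants and 1501 to 2131 in controls), and of 11 markers of endothelium and mural cells Pdgfrb (0.40) and Flt1 (0.44) were higher (sums 1106 to 1336 in mutants and 1019 to 1122 in controls). Of 10 markers of pyramidal and mossy cells 4 were higher and 2 lower, with Bok at 1.90, Fibcd1 at -0.94, Grik4 at 0.58 and Wfs1 at 0.40 (sums 8351 to 8862 in mutants and 8109 to 8517 in controls). The calls of Gfap (0.48 without control 2), Ugt8a (-0.27 to -0.35 without mutant 1, mutant 3, control 2 or control 3) and Flt1 (0.33 to 0.45 without mutant 2, mutant 3 or control 3) were lost when 1 array was left out. So was the call of Pitpnm2, of mature granule cells (-0.18 to -0.23 without mutant 1, mutant 2, mutant 3, control 1 or control 2). Of pyramidal and mossy cells, Calcrl (0.36 to 0.42 without mutant 1, mutant 2, mutant 3 or control 3) and Nptx1 (-0.21 to -0.26 without mutant 1, mutant 3 or control 2) were lost too. The part of these cells in the changes of the cell cycle genes was not tested.

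Of the 9 calls, the 5 of Ccnd2, Cdk6, Cdkn1c, Rb1 and Mcm6 held in each of the 6 fits that left out 1 array. With the methods' t-test after Benjamini-Hochberg adjustment, 4 cell cycle genes passed (Ccnd2, Cdkn1c, Rb1 and Mcm6), against 5.72% of all genes, and Cdk6, Cdkn1b, E2f6, Mcm3 and Cdc25a did not. With 3 arrays a group, an exact permutation test has a smallest possible p of 0.1 (two-sided), and precision is limited by this number.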

How the data were processed

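The transcriptome of laser-dissected granule cell layer was measured in 3 mutant and 3 control samples on 1-colour arrays. The submitters' processing notes name RMA and Affymetrix Expression Console, and the table deposited by the authors gives log2 signal for 35556 probe sets. RMA corrects background, equalizes the distributions of the arrays and combines probes, so a shift common to all genes is removed. For tool versions and annotation build, nothing is stated in the sources read. Only the 21789 probe sets with 1 annotated gene were used (against 1621 with several and 12146 not listed), with the highest mean over 6 arrays for each of 999 genes with several. No filter on level was applied. The lmFit and eBayes functions of limma 3.58.1 (R 4.3.3) were run without covariates, and p-values were adjusted by Benjamini-Hochberg over 19938 genes. Code was checked on simulated data.

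The cell cycle genes, gene lists and marker lists were chosen with earlier results of these data known. All 47 cell cycle genes are named. From each other list, those past the threshold are named or, where more than 4, the 4 of smallest p. Calb1, Dsp, Pitpnm2, Calcrl, Nptx1 and some markers that did not pass are named in addition. Mybl1, Tyms, Hus1, Btg1 and Dcx were chosen for values by array after their values were seen. Summed signals are sums of 2 to the power of the log2 values. The alternatives were the methods' t-test, array weights, a mean-variance trend with robust prior, leaving out dim genes, the mean of probe sets, every probe set, quantile normalization again, a replicate block, centring on array medians, other thresholds and leaving out each array. Batches are not described, and none was tested.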

Additional observations from a re-analysis of the deposited data

How the results depend on the processing

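Of 159 values of the 9 cell cycle genes that passed, computed under 18 alternatives, 130 kept direction and side of the threshold, 29 were no longer past it and 0 reversed. Many alternatives change only the test, the threshold, the replicate block or the set of genes fitted. These leave the log2 change as it was, so no reversal could occur under them. The count of 9 was 4 with the methods' t-test after adjustment and 5 to 12 when 1 array was left out, with 5 without mutant 3. The other settings gave 6 to 13, with 7 of 19 genes left by the filter on dim genes. Over all genes the count of 3023 was 1141 with that t-test, 4545 with it unadjusted, 5527 with array weights, 1663 at an unadjusted p under 0.001 and 1886 to 4487 with 1 array left out. The 21 other cell cycle genes became 9, 37, 42 and 8 under these 4 settings in the same order, and 9 to 34 with 1 array left out; the fewest were without control 2 and the most without control 1. The causes were not tested. Of the 36 genes that did not pass, 16 changed sign in some setting.

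Replicate numbers were not treated as pairing the arrays: deviations from the group means correlated at 0.164, -0.033 and 0.118 within numbers 1, 2 and 3, and the best partner carried the same number for 4 of 6 arrays. With the replicate block 9 cell cycle genes, 25 of the other cell cycle genes and 3176 genes in all passed.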
